A study of Mus musculus with 3 samples.

Results

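Genes of glucose breakdown and of the pathways that draw on it were examined in RNA bound to the chromatin of lipid A-stimulated macrophages. The set holds 36 of the 22028 protein-coding genes in the deposited gene tables. It was chosen by name, from the glucose transporter gene Slc2a1 to the itaconate-forming enzyme gene Acod1 rather than by a cutoff on a measured value, although earlier results of these data were known when it was proposed. All 36 symbols were found. For Aldoa the annotation holds 2 gene IDs, and the ID with the higher mean was used; the other was at 0.55, 0.38 and 0.26 TPM in replicates 1, 2 and 3.

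The cells were primary bone marrow-derived macrophages (BMDM) of the mouse strain C57BL/6J, given 100 ng/ml of lipid A, the TLR4-binding part of lipopolysaccharide, for 15 min. RNA of the chromatin fraction was depleted of ribosomal RNA and sequenced. There is 1 group of 3 biological replicates, and no unstimulated or later library was analysed here, so every value is a level at this time and not a response to lipid A. Each replicate has a sample label of its own, but all share a donor label, so the spread between them may be smaller than that between animals, and part of it may be technical. Age and sex of the animals are not given. Starting RNA was 1 µg, 250 ng and 500 ng in replicates 1, 2 and 3, and the gene tables held 10974934, 21376404 and 14376665 expected counts. No p is given for any value, because an exact two-sided test by sign flips of 3 libraries cannot go below 0.25.

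The label of the cells was checked against markers. All 10 macrophage markers had a mean of at least 1 TPM (transcripts per 1000000), with a summed level of 601 to 1040.4 TPM per library. None of the 8 neutrophil, 6 T and NK cell, 4 B cell, 5 fibroblast and endothelial or 4 mast cell markers reached a mean of 1 TPM in the gene table, and Mpo, Elane, Cd3e, Cd3g and Cd79b were listed at 0. In a second deposited quantification, described at the end, 8 of these markers did: Cd3d at 16.1, Pecam1 at 5.76, Cd8a at 3.88, Col1a1 at 1.51, Mpo at 1.49, Cpa3 at 1.37, Cd3g at 1.28 and Camp at 1.24 TPM. Their part in the levels of the set was not tested. Of the 4 erythroid markers 1 was at 1 TPM or more in both, Alas2, while the globin genes Hbb-bt and Hba-a1 were at 0.

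Glycolysis splits glucose into pyruvate, which is either reduced to lactate or carried into mitochondria, where pyruvate dehydrogenase feeds it to the tricarboxylic acid (TCA) cycle. The pentose phosphate pathway branches off at glucose 6-phosphate and yields NADPH and ribose. Macrophages activated through TLR4 are known for raised glycolysis and for diverting citrate to fatty acids and to itaconate. Chromatin RNA holds transcripts being made or not yet released, so its levels need not follow those of the stable cytoplasmic mRNAs.

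Nearly all genes of the set were detected on chromatin. Of the 36 genes, 35 had at least 1 TPM in all 3 libraries, against 42.4% of all protein-coding genes. The exception was Aldoc. A mean of at least 10 TPM was reached by 24 genes. The lowest of these, Taldo1 at 10.1 TPM, was at percentile 78.7 of all protein-coding genes. The median over the set was 12.1 ± 3.07 TPM (SD, n = 3), and the median over the 10251 protein-coding genes with a mean of at least 1 TPM was 8.73 ± 2.2 TPM. The means ran from 134 TPM for Hk3 to 0.797 TPM for Aldoc, over a nearly continuous order. Neighbours in an order are called separated here where the sign was the same in all 3 libraries and the mean difference of log2(TPM + 1) exceeded its SD. Only 7 of the 35 neighbouring pairs were separated, among them Hk3 from Pkm at the top and, at the bottom, Suclg1 from Idh3a, Idh3a from Slc2a1 and Slc2a1 from Aldoc.

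**Figure D1:**
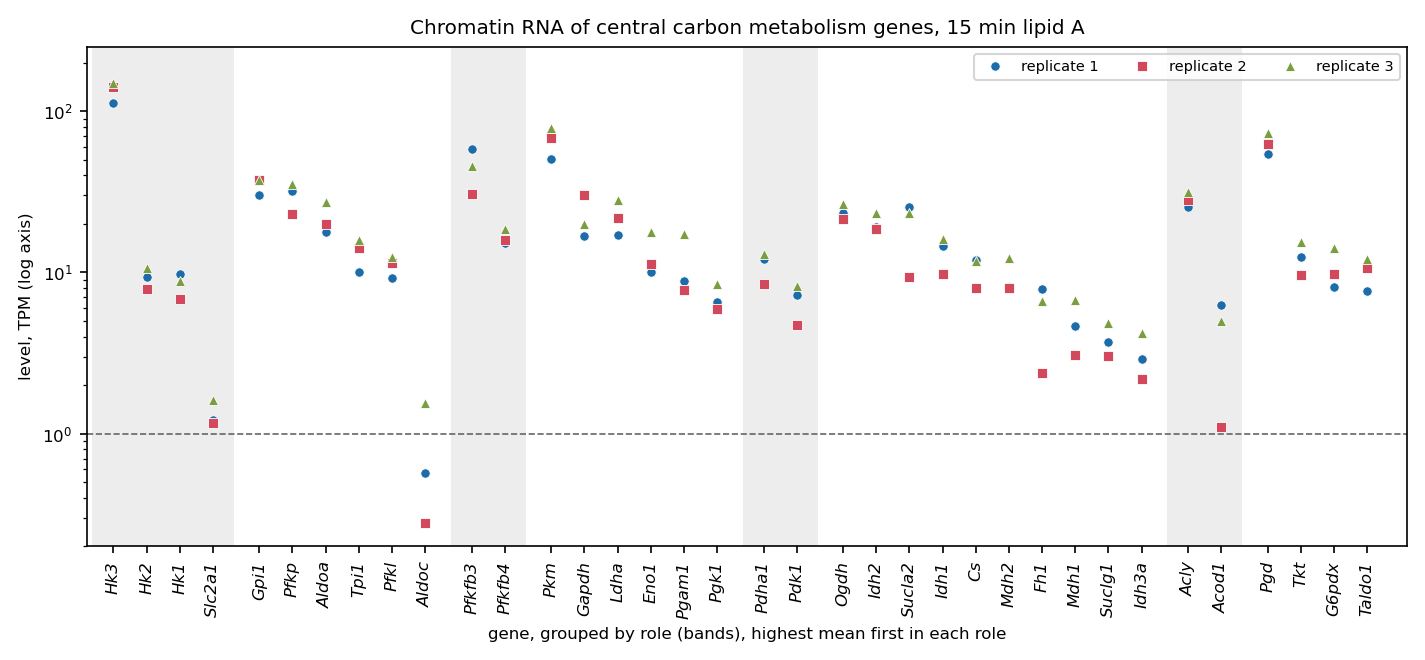
Level of each gene in TPM (log axis) in the 3 libraries, in bands by role, with the highest mean first in each role and the dashed line at 1 TPM. Hk3 is at 112 to 149.7 TPM, above every other gene in each library, and Aldoc alone falls under the line.

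Among the genes that bring glucose in and trap it, one hexokinase gene stood far above the others. Hk3, which encodes a hexokinase typical of myeloid cells, was at 112, 142 and 149.7 TPM in replicates 1, 2 and 3 (134 ± 20.0, SD, n = 3). That mean was at percentile 99.1 of all protein-coding genes and rested on 2681, 10869 and 4871 expected counts. Hk2, the inducible hexokinase often tied to high glycolytic flux, was at 9.31, 7.86 and 10.7 TPM (9.28 ± 1.41, SD, n = 3). Hk1, the broadly expressed hexokinase, was at 9.79, 6.83 and 8.89 TPM (8.5 ± 1.52, SD, n = 3). The ranges of Hk1 and Hk2 overlapped, and their log2 ratio of -0.12 ± 0.16 (SD, n = 3) changed sign between libraries. Hk3 exceeded both in every library. On the log2(TPM + 1) scale Hk1 minus Hk3 was -3.83 ± 0.41 and Hk2 minus Hk3 was -3.72 ± 0.28 (SD, n = 3 each). Slc2a1, the main glucose transporter of activated macrophages, was the lowest of the role at 1.22, 1.16 and 1.61 TPM (1.33 ± 0.244, SD, n = 3), from 50, 107 and 72 expected counts.

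Since Hk3 led the set, the 250 bases before its start are printed (RefSeq, GRCm38.p6, chr13:55021386-55021635, minus strand, 5′ to 3′). The gene itself lies at chr13:55005985-55021385, as ENSMUSG00000025877.14. Capitals mark the 2 motif matches a search of both strands found: GAGGAA, the core bound by PU.1, starting 210 bases before the start as its reverse complement, and ACGTG, the core of the HIF-1 element, starting 156 bases before it, also in reverse complement.
Hk3 upstream: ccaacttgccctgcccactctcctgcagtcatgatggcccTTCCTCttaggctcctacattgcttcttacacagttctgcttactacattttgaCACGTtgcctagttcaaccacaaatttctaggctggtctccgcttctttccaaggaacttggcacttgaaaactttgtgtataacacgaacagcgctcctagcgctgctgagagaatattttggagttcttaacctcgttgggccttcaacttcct
The same window was searched for every gene in the RefSeq table, with the first entry used where a gene has several. A promoter was matched for 35 of the 36 genes; Idh3a was not matched. ACGTG was in 11 of 35 windows (31.4%), against 16.6% of 27025 promoters. The longer E-box CACGTG, which contains it, was in 1 (2.86%), that of Ldha, against 6.05%. The GC box GGGCGG was in 24 (68.6%), against 32.9%, and a relaxed NF-kB core, GGGNNNNNCC, in 23 (65.7%), against 45.4%. GAGGAA was in 6 (17.1%), against 23.1%, and TATAAA in 1 (2.86%), against 13%. The TATAAA was that of Acod1, starting 28 bases before its RefSeq start. That start lies inside the Acod1 gene as GENCODE M21 places it, and so does this match. These are matches of letters and say nothing of binding.

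In upper glycolysis the levels ran from Gpi1 down to Aldoc. Gpi1, glucose 6-phosphate isomerase, was highest at 30.4, 37.3 and 37.5 TPM (35.1 ± 4.06, SD, n = 3). Pfkp, the platelet-type phosphofructokinase, was at 31.9, 23.1 and 35.2 TPM (30.1 ± 6.28, SD, n = 3), and was not separated from Gpi1. Pfkl, the liver-type enzyme of the same step, was at 11 ± 1.7 TPM (SD, n = 3). Pfkl minus Pfkp was -1.36 ± 0.37 on the log2(TPM + 1) scale (SD, n = 3), with Pfkp higher in all 3 libraries. Aldoa, the main aldolase of most tissues, was at 21.8 ± 4.97 TPM and Tpi1, triose phosphate isomerase, at 13.4 ± 2.95 TPM (SD, n = 3 each). Aldoc, the brain-type aldolase, was at 0.57, 0.28 and 1.54 TPM (0.797 ± 0.66, SD, n = 3), from 11, 14 and 17 expected counts. It came closest to the floor of 3 counts.

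The set holds 2 genes for enzymes of fructose 2,6-bisphosphate, the strongest activator of phosphofructokinase, and both had means above the set's median. Pfkfb3, the inducible isoform with high kinase activity, was at 58.5, 30.5 and 46 TPM (45 ± 14, SD, n = 3). Pfkfb4 was at 15.3, 15.9 and 18.7 TPM (16.7 ± 1.83, SD, n = 3). Pfkfb3 was higher in every library, with a log2(TPM + 1) difference of 1.34 ± 0.49 (SD, n = 3), and the ranges of the genes did not overlap. Of the other genes of this family, Pfkfb2 had a mean of 19 TPM, above Pfkfb4, and Pfkfb1 one of 3.9 TPM, below the set's median.

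Lower glycolysis was led by Pkm, pyruvate kinase, at 50.8, 67.8 and 78.4 TPM (65.7 ± 14, SD, n = 3). Gapdh, the glyceraldehyde phosphate dehydrogenase used as a standard of cytoplasmic mRNA, followed at 16.9, 30.3 and 19.9 TPM (22.4 ± 6.98, SD, n = 3). Ldha, the muscle-type lactate dehydrogenase subunit, was at 17, 21.8 and 28.2 TPM (22.3 ± 5.64, SD, n = 3). Gapdh and Ldha were not separated. Eno1, enolase, was at 13 ± 4.22 TPM and Pgam1, phosphoglycerate mutase, at 11.3 ± 5.17 TPM (SD, n = 3 each). Pgk1, phosphoglycerate kinase, was lowest at 6.58, 5.92 and 8.52 TPM (7.01 ± 1.35, SD, n = 3). The gene table's counts were fractional, by more than 0.005 from a whole number, in 9 genes of the set: Gpi1, Pfkp, Gapdh, Pgk1, Pgam1, Eno1, Pkm, Pdha1 and G6pdx. In these some reads were divided with other features, such as near-identical copies, and their levels are less certain.

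Genes of pyruvate entry and the TCA cycle had means from 3.11 TPM for Idh3a to 23.7 TPM for Ogdh. Pdha1, the catalytic subunit of pyruvate dehydrogenase, was at 12.1, 8.43 and 13 TPM (11.2 ± 2.42, SD, n = 3). Pdk1, the kinase that switches this enzyme off, was at 7.26, 4.72 and 8.28 TPM (6.75 ± 1.83, SD, n = 3), below Pdha1 in every library. Pdk1 minus Pdha1 was -0.66 ± 0.06 on the log2(TPM + 1) scale (SD, n = 3). In the second quantification that difference was -0.24, and Pdk1 was above Pdha1 in replicate 3, at 23 against 19.7 TPM. Of the 10 cycle and malate or isocitrate genes, Ogdh, the E1 subunit of 2-oxoglutarate dehydrogenase, was highest at 23.2, 21.3 and 26.5 TPM (23.7 ± 2.63, SD, n = 3). Idh2, the mitochondrial NADP-dependent isocitrate dehydrogenase, was at 20.3 ± 2.55 TPM (SD, n = 3). Idh1, its cytosolic counterpart, was at 14.6, 9.83 and 16.2 TPM (13.5 ± 3.31, SD, n = 3), lower than Idh2 in each library (log2 ratio -0.57 ± 0.25, SD, n = 3). Sucla2, the ATP-forming beta subunit of succinyl-CoA ligase, was at 25.5, 9.3 and 23.3 TPM (19.3 ± 8.77, SD, n = 3). Its alpha partner Suclg1 was at 3.68, 3.05 and 4.85 TPM (3.86 ± 0.913, SD, n = 3), and the log2 difference was 1.97 ± 0.58 (SD, n = 3). In the second quantification this difference was smaller, at 0.96.

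Cs, citrate synthase, was at 10.6 ± 2.27 TPM and the mitochondrial malate dehydrogenase gene Mdh2 at 9.49 ± 2.46 TPM (SD, n = 3 each). Mdh1, the cytosolic form, was at 4.84 ± 1.85 TPM, with Mdh1 minus Mdh2 at -0.87 ± 0.25 on the log2(TPM + 1) scale (SD, n = 3 each). Fh1, fumarase, was at 7.91, 2.39 and 6.66 TPM (5.65 ± 2.89, SD, n = 3). Idh3a, the catalytic subunit of the NAD-dependent isocitrate dehydrogenase, was the lowest of the cycle at 2.92, 2.18 and 4.23 TPM (3.11 ± 1.04, SD, n = 3). Across the 16 pairs of isozymes, partners or branch enzymes compared, 14 were separated. Hk1 with Hk2 and Taldo1 with Tkt were not. In the second quantification 13 pairs were separated, and they were not all the same pairs. There Hk1 with Hk2 (-0.34) and Taldo1 with Tkt (0.43) were separated. Idh1 with Idh2 (-0.29), Pdk1 with Pdha1 (-0.24) and Eno1 with Eno2 (-0.09) were not. The share over other pairs of genes was not computed.

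The enzymes that take citrate out of the cycle were unequal. Acly, ATP citrate lyase, which opens the route to fatty acids and acetyl groups, was at 25.6, 28.2 and 31.5 TPM (28.4 ± 2.95, SD, n = 3). Acod1, which makes itaconate and is a textbook target of TLR4, was at 6.29, 1.1 and 4.99 TPM (4.13 ± 2.7, SD, n = 3). It is ENSMUSG00000022126.6, at chr14:103046977-103056573 on the plus strand, and its values rested on 207, 83 and 186 expected counts. Acly exceeded Acod1 in every library, with a log2(TPM + 1) difference of 2.70 ± 0.99 (SD, n = 3).

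In the pentose phosphate pathway Pgd, the enzyme of its second NADPH-forming step, was the highest at 54.3, 62.7 and 73.3 TPM (63.5 ± 9.51, SD, n = 3). In the whole set it was not separated from Pkm above it or from Pfkfb3 below it, and in replicate 1 it was above Pkm and below Pfkfb3. In the second quantification its mean of 73.4 TPM was below the 90.2 TPM of Pfkfb3. G6pdx, which catalyses the committed step, was at 8.13, 9.71 and 14.1 TPM (10.6 ± 3.08, SD, n = 3). Their log2 difference, G6pdx minus Pgd, was -2.49 ± 0.16 (SD, n = 3), and the ranges lay far apart. Tkt, transketolase, was at 12.5 ± 2.86 TPM (SD, n = 3). Taldo1, transaldolase, was the lowest at 7.7, 10.6 and 12.1 TPM (10.1 ± 2.24, SD, n = 3). G6pdx, Tkt and Taldo1 followed each other without separation.

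For the contrast of pathways, 15 glycolytic enzymes were set against 8 TCA enzymes. The median of the glycolytic genes was 14 ± 3.87 TPM (SD, n = 3) and that of the TCA genes was 10.1, 8 and 12 TPM in replicates 1, 2 and 3. The difference of the median log2(TPM + 1) was 0.03, 0.75 and 0.53 in replicates 1, 2 and 3 (0.44 ± 0.37, SD, n = 3). Replicate 1 thus showed almost no difference. Without replicate 2 the mean was 0.28 and without replicate 1 it was 0.64. With the other genes of both pathways added, the sign turned, to -0.40. The added glycolysis genes include transporters such as Slc2a3 and regulators such as Pfkfb2, kinds that the 15 enzymes leave out. The added TCA genes all encode enzymes or their subunits. The order of the pathways thus depends on which genes are counted.

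The other pathway genes show where the set's choice matters. Of the 55 listed, 40 had at least 1 TPM in all libraries and 8 had a mean under 1 TPM. All 9 further TCA genes were detected, with a median of 20.1 ± 5.59 TPM (SD, n = 3), while 6 of the 12 further glycolysis genes were, with a median of 2.28 ± 0.629 TPM. The highest were Dlst, the E2 subunit of 2-oxoglutarate dehydrogenase, at 63.1 ± 18.9 TPM, Sdha, the catalytic subunit of succinate dehydrogenase, at 49.4 ± 16.9 TPM, and Arnt, the partner of HIF-1 alpha, at 48.9 ± 6.91 TPM (SD, n = 3 each). Under 1 TPM were Slc16a1 at 0.303, Ldhb at 0.29, Gapdhs at 0.243, Prps1 at 0.24, Me1 at 0.117 and Pcx at 0.0933 TPM. Pdk4, a pyruvate dehydrogenase kinase induced by fasting, and Egln3, a HIF prolyl hydroxylase, were listed at 0 in every library. At an effective length of 1 kb, the floor of 3 counts was worth 0.221, 0.0947 and 0.191 TPM, for counting error only. In the second quantification Pcx, pyruvate carboxylase, was at 29.1 ± 8.99 TPM and Gapdhs, the testis form of Gapdh, at 4.13 ± 1.99 TPM (SD, n = 3 each), so the low level of both rests on the gene table alone. The other 6 were under 1 TPM there too.

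Isozymes best known from other tissues mostly had means under 1 TPM in the gene table. Of 16 genes, 5 were at 1 TPM or more in all libraries, and Pgk2 and Pdha2 were listed at 0 in every library. Eno2, the neuronal enolase, was the highest. It was at 12.8, 21.2 and 21.3 TPM (18.5 ± 4.88, SD, n = 3), above Eno1 in each library, with Eno1 minus Eno2 at -0.48 ± 0.33 on the log2(TPM + 1) scale (SD, n = 3). In the second quantification that difference was -0.09. The others were Pfkfb1 at 3.9, the muscle enolase Eno3 at 3.59, the muscle phosphofructokinase Pfkm at 2.38 and Pgam2 at 1.59 TPM. In the second quantification these were higher, at 6.11, 6.25, 6.72 and 9.33 TPM. Of the genes under 1 TPM in the gene table, only Pklr passed 1 TPM there, at 2.77 against 0.0267 TPM. Ldha exceeded Ldhb, the heart-type subunit, with a log2(TPM + 1) difference of 4.15 ± 0.41, and Pfkl exceeded Pfkm with one of 1.82 ± 0.16 (SD, n = 3 each).

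Much of the set's RNA was assigned to isoforms annotated as retaining an intron. The deposited transcript tables give the percent of each gene's abundance held by each isoform. Of the 36 genes, 28 have at least 1 retained-intron model, and 8 have none: Slc2a1, Hk2, Hk3, Pdk1, Idh1, Mdh1, Acly and Acod1. In 15 of the 28 (53.6%) such isoforms held 50% or more, against 45.9% of the protein-coding genes with such a model and a mean of at least 1 TPM. The median share was 53 ± 3.19%, against 47.6 ± 3.2% over those genes (SD, n = 3 each). By abundance, the set's share thus lay near that of other genes. As a share of expected counts, which weights long models more, the median was 37.2% and 8 genes were at 50% or more. The share by counts was not computed over all genes.

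Single genes spanned nearly the whole range. Pfkp was at 96.7%, 87.3% and 91.2%, Gpi1 at 95%, 86.3% and 92.4%, and Idh3a at 73.5%, 85.7% and 88.8% in replicates 1, 2 and 3. Hk1 was at 32.6%, 30.1% and 17%, G6pdx at 16.8%, 9.35% and 19.7%, and Aldoc was listed at 0 in each library. These genes were picked as the highest and lowest by mean share, so the gap between them follows from that choice and is not a separate result. The most abundant isoform was annotated as protein coding in 21 genes, as retained intron in 14, and as a processed transcript in 1, Hk3, by the mean over libraries. The like shares over all genes were not computed. In Hk3 the lead of the processed transcript was slight. Hk3-205, the processed transcript, held 40.2%, 12.8% and 25.8% (mean 26.3%), the protein-coding Hk3-201 held 26.7%, 25.1% and 26.6% (mean 26.1%), and the protein-coding Hk3-208 held 15.2%, 34.3% and 20.1%. A different one of these was highest in each library. Idh1-201 held 100%, 100% and 98.7% of Idh1, and Acod1 has a single isoform.

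**Figure D2:**
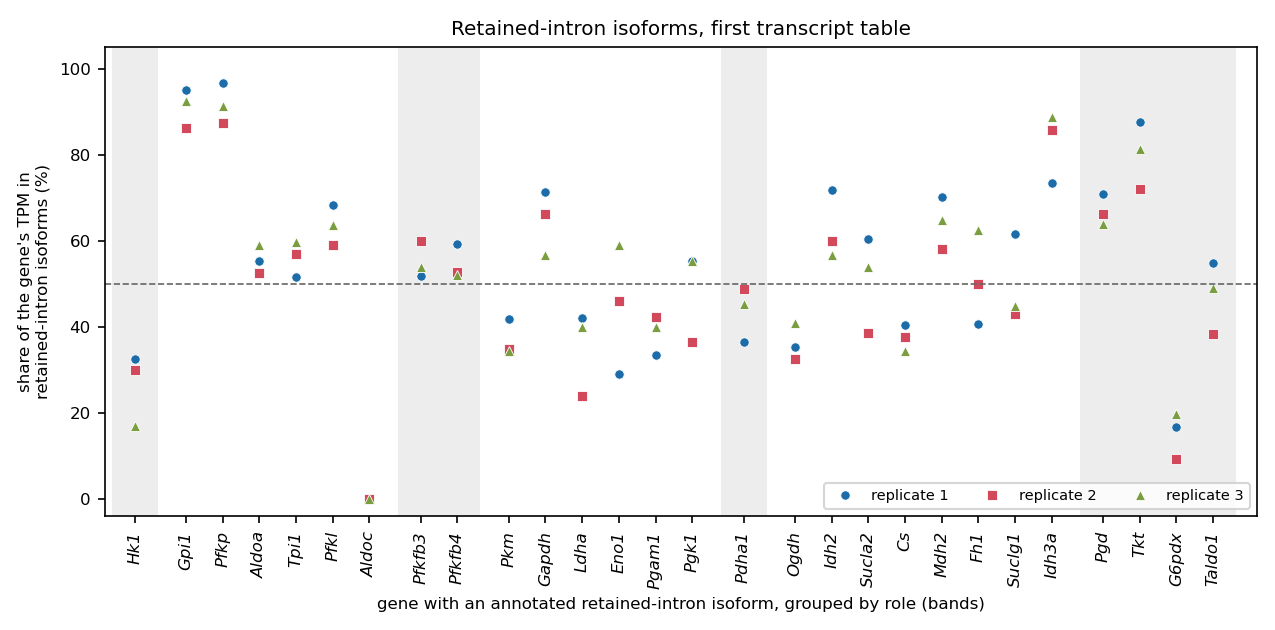
Share of each gene's TPM held by retained-intron isoforms (%), in 3 libraries, for the 28 genes with such a model, in bands by role, with the dashed line at 50%. Gpi1 and Pfkp lie between 86.3% and 96.7%, while G6pdx stays under 20% and Aldoc is at 0.

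A retained-intron model seldom holds an intron from end to end. Each was compared with its gene's lowest-numbered coding model, which was not always an abundant one. Pfkfb3-201 held 0% of its gene and Ldha-201 a mean of 0.197%. Against these references, 14 of the 76 retained-intron models held at least 1 whole intron, 59 held only part of one and 3 held none. The median model was 42% intronic, and other references could change these counts. Gpi1, at chr7:34201330-34230336 on the minus strand (ENSMUSG00000036427.5), is the plainest case. Its spliced coding model Gpi1-201 held 4.21%, 4.36% and 7.58% of abundance. Gpi1-203 held 43%, 36.9% and 45.3%, and Gpi1-211 held 36.7%, 42.7% and 39.2%. Gpi1-211 runs 747 bases into the 7645-base intron 9 and stops, and Gpi1-203 starts inside the same intron and covers its last 2067 bases. The 2 edges of that intron are printed from the models' sequences (GENCODE M21, GRCm38, minus strand, 5′ to 3′), the donor side at chr7:34215926-34215985 and the acceptor side at chr7:34208281-34208340. Exon bases are in lower case and intron bases in capitals, and the intron begins with GT and ends with AG.
Gpi1-211 donor: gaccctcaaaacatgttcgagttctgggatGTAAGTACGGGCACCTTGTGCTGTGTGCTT
Gpi1-203 acceptor: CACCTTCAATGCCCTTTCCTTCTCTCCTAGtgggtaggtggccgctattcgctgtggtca
Together they cover both ends of an intron that Gpi1-201 splices out. Whether their reads come from precursor still to be spliced or from a retained intron was not tested.

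Pkm makes different enzymes from a pair of mutually exclusive exons. The upstream exon gives PKM1, the constitutively active form of muscle and brain, and the downstream exon gives PKM2, the regulated form of proliferating and immune cells. Both are coding exons of 167 bases on the plus strand of chromosome 9 within Pkm (ENSMUSG00000032294.17, chr9:59656368-59679375), and each is exon 9 of its own model. They are printed to show what separates the isoforms (GENCODE M21, GRCm38, 5′ to 3′), with the M1 exon at chr9:59675029-59675195 and the M2 exon at chr9:59675568-59675734. Capitals mark the 64 positions at which they differ, and the other 103 are identical (61.7%).
Pkm M1 exon: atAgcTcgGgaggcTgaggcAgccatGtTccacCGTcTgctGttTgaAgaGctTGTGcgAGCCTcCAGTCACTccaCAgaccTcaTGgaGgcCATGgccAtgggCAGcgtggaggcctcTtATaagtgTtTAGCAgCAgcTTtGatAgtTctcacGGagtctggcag
Pkm M2 exon: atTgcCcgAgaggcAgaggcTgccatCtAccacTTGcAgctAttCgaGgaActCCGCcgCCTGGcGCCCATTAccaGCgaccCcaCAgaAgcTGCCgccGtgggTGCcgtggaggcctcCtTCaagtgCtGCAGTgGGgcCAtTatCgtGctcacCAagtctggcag
Pkm-201, with the M2 exon, held 20.5%, 28.5% and 32% of the gene's abundance, from 315, 1341 and 859 expected counts. Pkm-202, with the M1 exon, held 6.05%, 8.51% and 4.73%, from 76.7, 329 and 104 expected counts. The M2 isoform was higher in each library, by 3.39, 3.35 and 6.75 times in TPM. In the second quantification the ratio was 2.18, 2.15 and 3.94. The M1 exon is also part of the retained-intron model Pkm-203, so isoform estimates and exon use are not the same. The isoform with the largest share was the retained-intron model Pkm-205 at 41.9%, 34.1% and 33.9%, which ends 886 bases into the 3494-base intron 8, before either exon, and so cannot be assigned to one enzyme form.

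**Figure D3:**
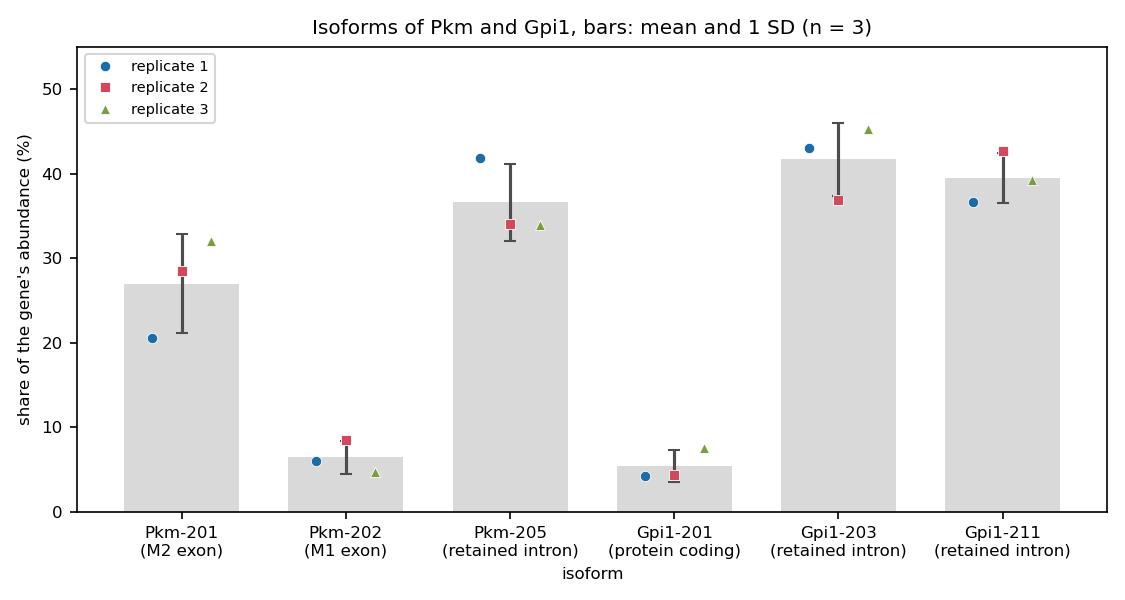
Share of the gene's abundance (%) held by 3 isoforms of Pkm and 3 of Gpi1, as bars of the mean with 1 SD (n = 3) and points for the libraries. The M2-exon isoform Pkm-201 lies above the M1-exon isoform Pkm-202 in each library, and both retained-intron models of Gpi1 lie far above the spliced Gpi1-201.

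Libraries were compared after scaling to the TPM of protein-coding genes, because these held 23.9%, 16.7% and 25.3% of all TPM in replicates 1, 2 and 3. The ratio of the highest to the lowest library then exceeded 2-fold in 5 genes (13.9%), against 18.8% of protein-coding genes with a mean of at least 1 TPM. The median ratio was 1.54 in the set and 1.49 over all those genes. The 5 were Acod1 at 3.99, Aldoc at 3.62, Gapdh at 2.56, Fh1 at 2.31 and Tpi1 at 2.01. The steadiest were Pdha1 at 1.02, Pfkp at 1.04 and Cs at 1.08, with Idh1 also at 1.08. The count moved with the libraries and the scaling: it was 3 without replicate 1, 1 without replicate 2 and 4 without replicate 3. It was 10 with TMM-scaled counts or with DESeq2 size factors. The share of all genes past 2-fold was not computed under these settings.

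Acod1 was the one gene past 2-fold under each of the 5 scalings and quantifications tried. Per 1000000 of protein-coding TPM it was at 26.3, 6.6 and 19.7 in replicates 1, 2 and 3, so that replicate 2 stood well below the other libraries. Gapdh went the other way, at 70.9, 182 and 78.8, with replicate 2 the highest. Pdha1 was at 50.7, 50.6 and 51.4. Fh1 was at 33.1, 14.3 and 26.3, from 126, 117 and 128 expected counts before any scaling for depth. Its ratio of 2.31 fell to 1.5 on TMM-scaled counts, 1.46 with DESeq2 size factors and 1.83 in the second quantification. Aldoc differed by 3.62-fold on few counts, with 1.39-fold on TMM-scaled counts. Sucla2 differed by 1.91-fold, with 1.17-fold on TMM-scaled counts and 1.14-fold with DESeq2 size factors.

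**Figure D4:**
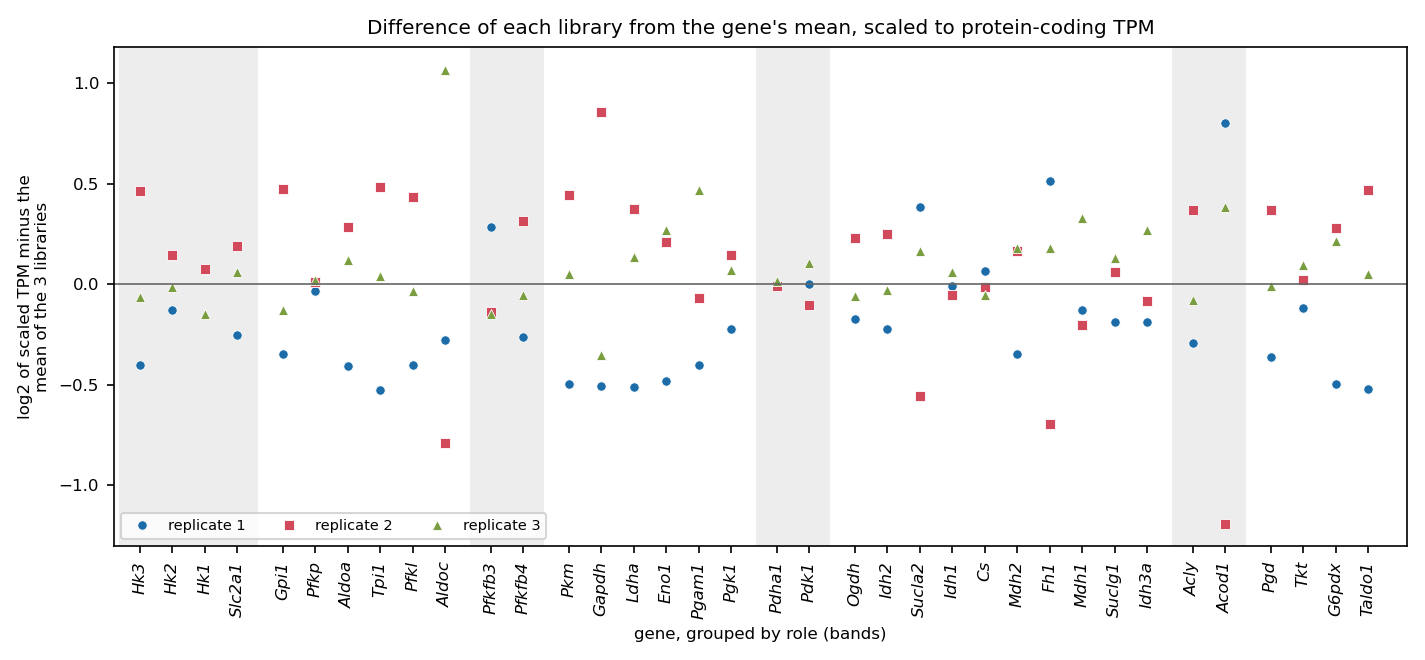
Log2 of TPM per 1000000 of protein-coding TPM in each library minus the gene's mean over the 3 libraries, by role. In most glycolytic and pentose phosphate genes replicate 1 lies lowest and replicate 2 highest, while for Acod1, Fh1 and Sucla2 replicate 2 lies lowest.

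Replicate 1 was often the lowest library and replicate 2 often the highest. On this scale 25 genes (69.4%) were lowest in replicate 1, as were 40.6% of the protein-coding genes compared, and 19 (52.8%) were highest in replicate 2, against 31.9%. Both held for 18 genes (50%), against 25.7% of the protein-coding genes compared. The median deviation from the mean of the libraries, relative to that of all 10251 genes, was -0.18, 0.17 and 0.00 in replicates 1, 2 and 3 on the log2(TPM + 1) scale. All 10251 genes shifted by 0.11, -0.36 and 0.26. The 15 glycolytic enzymes gave -0.35, 0.27 and -0.01, the 4 pentose phosphate genes -0.37, 0.32 and 0.02, and the 8 TCA enzymes -0.14, 0.07 and 0.04. Without replicate 2, replicate 1 was at -0.07, and without replicate 1, replicate 2 was at 0.07. With no filter on low values they were at -0.11 and 0.03. On TPM as deposited, 22 genes were lowest in replicate 2 and 29 highest in replicate 3, so the order of the libraries holds only relative to other genes.

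Replicate 2 had the least starting RNA, the most counts and the smallest protein-coding share of TPM, and the part of these in the pattern was not tested. Gene length moved with it. Across the 36 genes, Spearman's rho between genomic span and deviation was 0.58, -0.23 and -0.48 in replicates 1, 2 and 3, and over all 10251 genes it was 0.21, -0.10 and -0.22. These values describe genes that share a library and are not independent. Short genes such as Tpi1 (3.71 kb), Gapdh (4.75 kb) and Taldo1 (10.8 kb) were among those low in replicate 1, and the long Sucla2 (70.8 kb) and Pfkfb3 (82.6 kb) were highest there. Others went against this: Acod1 (9.6 kb) was short and highest in replicate 1, while Ogdh (65 kb) and Acly (51.6 kb) were long and lowest there. The long Pfkp (69 kb) hardly deviated, at 0.00, 0.02 and -0.02 in replicates 1, 2 and 3. The part of gene length in the result was not tested.

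A second, separately deposited quantification of the same libraries gave higher levels. It exceeded the gene table in 35 of the 36 genes, and by more than 2-fold in 12 (33.3%), against 29.6% of protein-coding genes with a mean of at least 1 TPM. The median log2 ratio was 0.71 ± 0.14, against 0.59 ± 0.11 over those genes (SD, n = 3 each). The set's median level rose to 21.2 TPM. Hk3 was again the highest, at 283, 283 and 333 TPM, followed by Pkm at 125, 127 and 169 TPM.

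The genes whose level depends most on the quantification were Suclg1, at 12.6, 8.44 and 15.8 TPM (3.19 times the gene table), Slc2a1, at 3.81, 4.74 and 4.11 TPM (3.17 times), and Pdk1, at 19.3, 8.09 and 23 TPM (2.48 times). Their gene table values lay below these in every library. Aldoc, at 0.608, 0.414 and 1.67 TPM (1.13 times), and Gpi1, at 34.5, 39.1 and 40.2 TPM (1.08 times), hardly differed. Gapdh alone had a lower mean, at 18.8, 19.9 and 13.6 TPM (0.777 times). It was lower in replicates 2 and 3 and slightly higher in replicate 1. Idh1 minus Idh2 narrowed from -0.57 to -0.29, and Taldo1 minus Tkt, not separated in the gene table, went from -0.28 to 0.43.

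**Figure D5:**
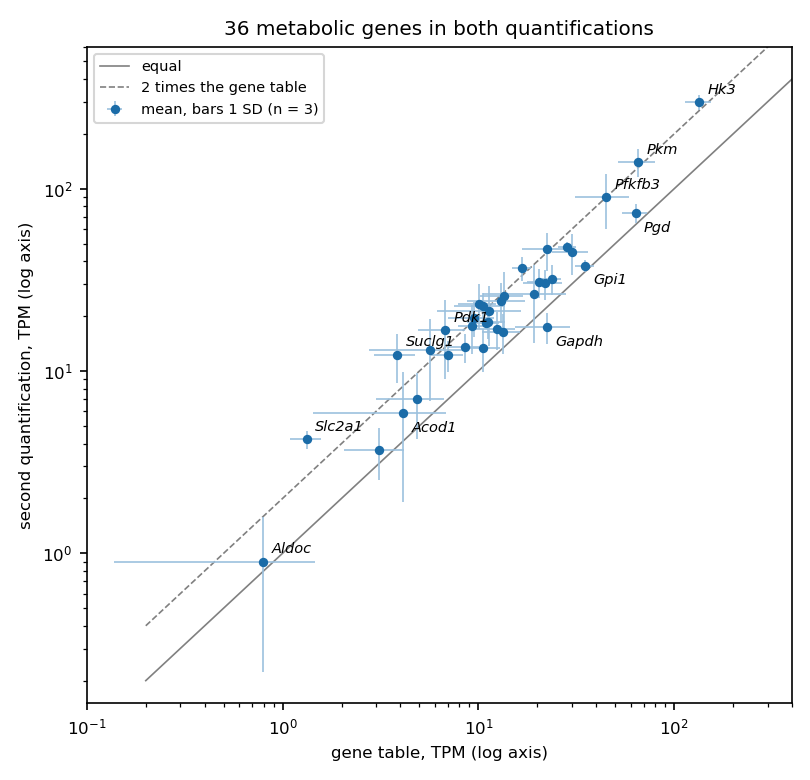
Mean TPM of the 36 genes in the gene table (horizontal, log axis) and in the second quantification (vertical, log axis), with bars of 1 SD (n = 3), the solid line at equality and the dashed line at 2 times the gene table. Gapdh is the one gene under the solid line, and Slc2a1 and Suclg1 lie furthest above the dashed line.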

How the data were processed

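Chromatin RNA depleted of ribosomal RNA was measured in 3 libraries of 1 group. Per the file headers, the deposited gene table gives TPM (transcripts per 1000000) and expected counts, some of them fractional, and the deposited transcript table adds each isoform's percent of its gene's abundance. A further deposited transcript table, called the second quantification, gives estimated counts and TPM from the authors, summed here over the transcripts of a gene. GENCODE M21 on mm10 was the reference, per the labels and the deposited text beside each table. Not given in the sources used here are the aligner, the counting programs, their versions and any use of strand, so reads of a gene and an antisense partner cannot be told apart.

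The members and lists were chosen with earlier results of these data known, and no test was made between groups. Levels are means and SDs of TPM, and differences are on log2(TPM + 1), which understates those of low genes. Scaled values are TPM per 1000000 of the library's protein-coding TPM. Background values use protein-coding genes with a mean of at least 1 TPM, except for detection, percentiles and motifs. Detection and percentiles use all protein-coding genes, and motifs use all RefSeq promoters searched, whatever the level of their genes. Intervals and floors (3 counts) cover counting error only, because without molecular identifiers reads cannot be taken as separate molecules. Depth was 10974934 to 21376404 expected counts, and 11 to 10869 for a gene of the set in a library. For the alternatives, expected counts were rounded for edgeR 4.0.16 (TMM) and DESeq2 1.42.0 (size factors) under R 4.3.3. The rest ran in Python 3.11.15 with numpy 2.4.6 and pandas 2.3.3. Of the steps, only the 2-fold call and the deviation by library were tested on simulated data.

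All 36 genes are named with their mean. Values per library are given for the highest and lowest of each role, for 13 fixed genes, and for the 3 highest and 3 lowest in library ratio, quantification ratio and retained-intron share. Other pathway genes are named where among the 3 highest or under 1 TPM, and tissue-restricted isozymes at 1 TPM or more or at 0, of which 1 is not reported here. Further values, and those in the closing section, were chosen after they were seen.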

Additional observations from a re-analysis of the deposited data

How the results depend on the processing

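No paired analysis was possible because all libraries belong to 1 group. Of 145 values recomputed under other settings, 120 stayed within 1 SD of the libraries, or within 1.5 times for counts, 24 moved further and 1 reversed. Glycolysis minus TCA reversed to -0.40 with the other pathway genes added. With the second quantification the set's median level was 21.2 TPM. The count of genes past 2-fold was 10 with TMM-scaled counts and 10 with DESeq2 size factors, and 1 to 4 with a replicate left out. By expected counts the median retained-intron share was 37.2%, with 8 genes at 50% or more. For these counts of genes no share over all genes was computed. Of 80 values for single pairs, 17 moved and none reversed a separated pair. With the second quantification 13 pairs were separated, not all of them the same pairs. Leaving out a replicate gave 35 genes detected each time, median levels of 10.4 to 13.3 TPM, 14 to 15 separated pairs, median retained-intron shares of 52% to 54.9%, and a log2 ratio of the quantifications of 0.63 to 0.76. The causes were not tested. Depth limits mainly Aldoc, Mdh1 and Slc2a1, and with 1 group no value is a response to lipid A.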

Other observations

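Among regulators of the pathway, chosen here after their values were seen, Hif1a was at 18.3, 8.23 and 16.8 TPM in replicates 1, 2 and 3, Mlxip at 22.1, 19.1 and 30.8 TPM, and Myc at 2.8, 1.96 and 3.26 TPM. Hif1a, the oxygen-regulated subunit that drives glycolytic genes, was lowest in replicate 2 in TPM, as were 22 of the 36 genes of the set. Mlxip encodes a glucose-sensing factor related to ChREBP. Slc2a6, a glucose transporter gene of the lysosome, was at 17.9, 2.65 and 7.57 TPM. After scaling to protein-coding TPM its libraries differed by 4.71-fold, with replicate 1 highest and replicate 2 lowest, the same order as in Acod1. Its mean of 9.37 TPM lay above the 1.33 TPM of Slc2a1. Mpc1, a subunit of the mitochondrial pyruvate carrier, was at 45.6, 19.3 and 36 TPM and its partner Mpc2 at 7.17, 4.58 and 5.93 TPM, and their ranges did not overlap.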
